A study of Mus musculus with 4 samples.

Results

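Immune cells from B16-GP33 melanomas of mice given an antibody to PD-1 were compared directly with those of mice given an antibody to PSGL-1. The comparison rests on 12107 single cells, 5238 from the anti-PD-1 library and 6869 from the anti-PSGL-1 library, of 25954 cells kept over the 4 libraries of the study. Both libraries were chosen by their treatment label, and a cell was kept where it had at least 300 detected genes, no more than 10% of its unique molecular identifiers (UMIs, the counted RNA molecules) from mitochondrial genes and no more than 60000 UMIs. All mice were C57BL/6 and carried B16-GP33, a B16 melanoma line made to display the GP33 epitope that CD8 T cells recognise, placed under the skin of the right flank on day 0. The animals received 200 ug of antibody on days 8, 10 and 12, tumours were taken on day 18, and live CD45.2+ cells (negative for the dead-cell dye PI) were sorted for each treatment and captured on the 10x Genomics Chromium platform. An IgG library (9465 cells) and a library from mice given 200 ug of each antibody (4382 cells, the combination) are given only as reference levels. The labels name each antibody by its target alone, and they give neither the age or sex of the mice nor the number of tumours behind a library.

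PD-1, encoded by Pdcd1, is a receptor that activated T cells display and that holds them back. When it binds PD-L1 (Cd274) or PD-L2 (Pdcd1lg2) on tumour or myeloid cells it dampens signalling from the T cell receptor, and antibodies to it are in wide clinical use. PSGL-1, encoded by Selplg, is best known as the leukocyte ligand of the selectins, through which white cells roll on the vessel wall. It is carried by nearly all leukocytes and can also restrain T cells, and VISTA (Vsir) has been described as one of its partners.

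Each treatment was measured in 1 library, so a difference between treatments cannot be told apart from a difference between libraries or animals, and no p-value is given. Every 95% interval below covers counting error only. It is an exact binomial one for a share of cells, an exact conditional Poisson one for a ratio of CPM, and a log-normal approximation for a ratio of shares. UMIs were summed over the cells of a type in each library and expressed as CPM, the usual scaling of a gene's count by all UMIs of that cell type in the library. A gene was treated as measured in a cell type where it reached 10 CPM in either library and 20 UMIs over both, and as higher or lower where the ratio of anti-PD-1 over anti-PSGL-1 was past 1.5-fold. The compared libraries were close in depth, with a median of 6389.5 UMIs and 1972 genes per cell under anti-PD-1 and of 6374 UMIs and 1946 genes under anti-PSGL-1, and 13 cell barcodes occurred in both. Of 5300 genes measured in all 6 cell types analysed, 43 were lower and 14 were higher past 1.5-fold in all 6. The lower set held 10 ribosomal protein genes, of 94 among all 5300. These 43 genes were short, with a median longest transcript of 821 bases against 3248 bases over all 5300. The higher set held the interferon-induced genes Isg15, Isg20, Zbp1 and Irgm1 beside the ribonuclease genes Rnaset2a and Rnaset2b.

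Cells were assigned to types by summed lineage markers (a T cell by its CD3 and T cell receptor genes, for example). The assignment was checked with 7 genes per lineage that it had not used, of which some are given, among them genes that separated types poorly. Lck, the kinase of the T cell receptor, was detected in 93.3% and 90.7% of CD8 T cells under anti-PD-1 and anti-PSGL-1, against 2.60% and 3.94% of macrophages and monocytes. Klra4, an NK receptor, was detected in 47.7% and 33.8% of NK cells and in 0.604% and 0.296% of CD8 T cells. Under anti-PD-1, Prf1 (56.8% of NK and 74.0% of CD8 T cells) and Klrk1 (87.3% and 79.3%) did not tell these types apart. H2-DMb2, which helps load MHC class II, was detected in 55.2% and 59.1% of dendritic cells and in 6.45% and 6.51% of macrophages and monocytes. The lysosomal enzyme genes Ppt1 (52.7% against 60.7% under anti-PD-1) and Naaa (69.2% against 60.0%) did not separate dendritic cells from macrophages and monocytes. Cd68, a lysosomal protein of macrophages, was detected in 92.9% and 91.6% of macrophages and monocytes and in 10.4% and 9.77% of CD8 T cells. Lgals3 and Ctss separated these types less. Under anti-PD-1 they were detected in 99.2% and 99.1% of macrophages and monocytes and in 76.3% and 51.7% of CD8 T cells. Transcripts of melanoma marker genes summed to 24.5 and 20.9 CPM over all kept cells, and those of fibroblast genes to 0.125 and 0.759 CPM.

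The anti-PD-1 library held a larger share of macrophages and NK cells, and the anti-PSGL-1 library a larger share of conventional CD4 T cells, dendritic cells and neutrophils, while CD8 T cells were a similar share of both. T cells of all kinds made up 30.9% of kept cells under anti-PD-1 (interval 29.7 to 32.2) and 37.4% under anti-PSGL-1 (36.2 to 38.5), with 31.4% in the IgG and 48.3% in the combination library. CD8 T cells, the killer lineage, were 22.1% (1158 cells) and 19.7% (1351 cells), a ratio of 1.12 (1.05 to 1.21), against 14.6% under IgG and 39.5% under the combination. CD8 T cells therefore took up different shares of the T cells themselves, 71.5% (69.2 to 73.7) under anti-PD-1 and 52.6% (50.7 to 54.6) under anti-PSGL-1.

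Conventional CD4 T cells, the helper lineage without Foxp3, were 1.49% (1.18 to 1.86) under anti-PD-1 and 4.73% (4.24 to 5.26) under anti-PSGL-1, a ratio of 0.315 (0.246 to 0.402), with 2.55% under IgG and 2.42% under the combination. Regulatory T cells, the Foxp3+ suppressive lineage, were 1.89% and 2.11%, and the interval of their ratio of 0.895 (0.695 to 1.15) spans equality. They were 3.51% under IgG and 0.867% under the combination. For each regulatory T cell there were 11.7 CD8 T cells under anti-PD-1 and 9.32 under anti-PSGL-1. For each conventional CD4 T cell there were 14.8 and 4.16.

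NK cells, innate killers that need no antigen receptor, were 9.01% (8.25 to 9.82) under anti-PD-1 and 5.69% (5.16 to 6.27) under anti-PSGL-1, a ratio of 1.58 (1.39 to 1.80), with 7.02% under IgG. Conventional dendritic cells, which carry antigen to T cells, were 3.84% (3.33 to 4.39) and 7.29% (6.69 to 7.93), a ratio of 0.526 (0.448 to 0.617), with 6.81% under IgG and 2.85% under the combination. All 3 of their subsets were a smaller share under anti-PD-1. The ratio was 0.440 for cDC1 (45 against 134 cells), the cross-presenting subset, and 0.706 with types assigned on cells thinned at random to 2000 UMIs each. It was 0.605 for cDC2 (107 against 232 cells), which serve CD4 T cells, and 0.461 for migratory cells with the lymph-node homing programme (45 against 128 cells). Plasmacytoid dendritic cells, the interferon-secreting kind, went the other way at 0.554% and 0.247% but numbered 29 and 17 cells.

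Macrophages and monocytes were 47.0% (45.7 to 48.4) under anti-PD-1 and 34.0% (32.9 to 35.1) under anti-PSGL-1, against 26.7% under IgG and 35.8% under the combination. They outnumbered T cells in the anti-PD-1 library alone. Macrophages alone were 36% and 21.4%, a ratio of 1.69 (1.59 to 1.79), whereas monocytes, their blood-derived precursors, were 11.0% and 12.6%. There were 3.28 macrophages for each monocyte under anti-PD-1 and 1.69 under anti-PSGL-1, with 320 and 430 cells lying near the boundary between them. Neutrophils were 0.955% (50 cells) and 4.37% (300 cells), a ratio of 0.219 (0.162 to 0.294), and the anti-PSGL-1 share was close to the 5.13% of IgG. The share of cells carrying markers of both T and dendritic cells, whether doublets or attached cells, was 0.439% under anti-PD-1 and 1.88% under anti-PSGL-1.

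**Figure D1:**
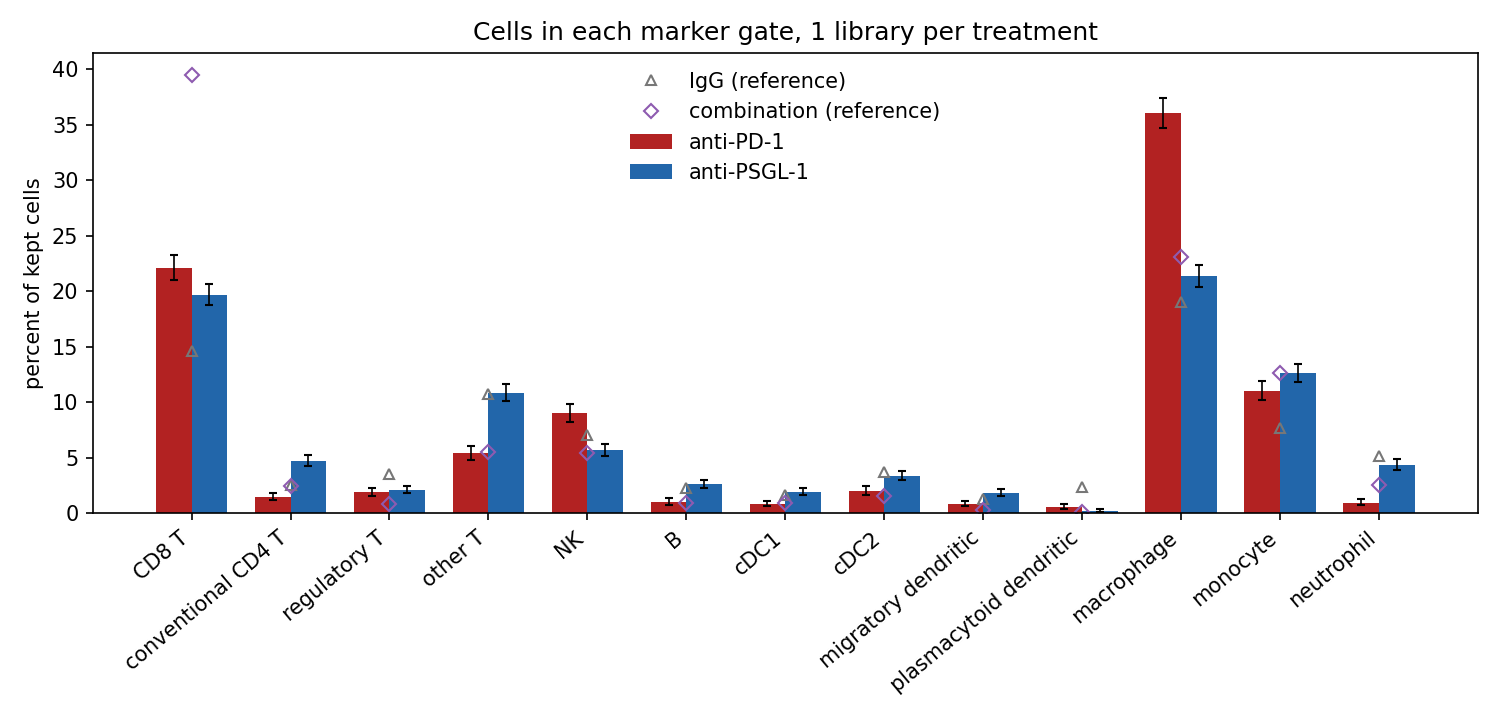
Share of kept cells (percent, vertical axis) in each cell type (gate), with bars for the anti-PD-1 and anti-PSGL-1 libraries, their exact 95% binomial intervals for counting error, and open symbols for the IgG and combination libraries. CD8 T cells stood at 22.1% and 19.7% in the compared libraries, while macrophages (36% and 21.4%) and conventional CD4 T cells (1.49% and 4.73%) stood apart.

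In CD8 T cells 5 granzyme genes of the chromosome 14 cluster were 13.8-fold to 335-fold higher in the anti-PD-1 library, and Ifng (interferon-gamma), Areg (amphiregulin), Klrd1, Klrk1 and Lag3 were higher there too. Genes of progenitor and circulating T cells, several chemokine receptors and the factors Eomes and Maf were higher under anti-PSGL-1. Of 7267 genes measured in this cell type, 216 (2.97%) were higher under anti-PD-1 and 293 (4.03%) were lower, the smallest shares among the 6 cell types analysed. The median UMIs per CD8 T cell were 10319.5 under anti-PD-1 and 7847 under anti-PSGL-1, so shares of cells with a UMI are given also after each cell was thinned at random to 2000 UMIs, which left out 9 and 10 shallower cells. Macrophages and monocytes, with median UMIs of 6447 and 6957, serve as the background cell type for T cell genes.

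The targets themselves were looked at first. Pdcd1 stood at 588 CPM under anti-PD-1, 428 under anti-PSGL-1, 468 under IgG and 636 under the combination, a ratio of 1.37 (1.33 to 1.42). Selplg stood at 433, 454, 453 and 475 CPM in the same order, a ratio of 0.955. Neither target passed 1.5-fold in CD8 T cells, and an antibody that binds a protein is not read out by its transcript. Of the 12 genes of the selectin ligand pathway, 8 were measured and 2 were higher, with a median log2 ratio of -0.02 against 0.07 over all measured genes. They were Fut7, the fucosyltransferase that completes selectin ligands (12.6 against 5.65 CPM), and Gcnt1, which builds their branched glycans (17.2 against 8.87 CPM).

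Granzymes are the proteases that killer cells deliver into their targets, and perforin (Prf1) opens the way for them. Of the 16 granule genes, 7 were higher and 2 lower under anti-PD-1, with a median log2 ratio of 0.44. Gzmc, Gzmd, Gzme, Gzmf and Gzmg lie beside Gzmb on the minus strand of chromosome 14 (GRCm38), from Gzme at 56117626 to 56120625 to Gzmb at 56258838 to 56262260. Gzmf stood at 1259 CPM under anti-PD-1 and 68.2 under anti-PSGL-1, with 55.6 under IgG and 1187 under the combination, a ratio of 18.5 (17.2 to 19.8). Gzmc stood at 1007, 73.2, 81.8 and 639 CPM in the same order, a ratio of 13.8 (12.9 to 14.7). The anti-PSGL-1 library lay near IgG for both genes, and the anti-PD-1 library above the combination. Gzme (389 against 17.8 CPM) and Gzmd (406 against 21.5 CPM) had ratios of 21.8 and 18.9.

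These differences held in numbers of cells. Gzmc was detected in 32.8% of CD8 T cells under anti-PD-1 and 6.66% under anti-PSGL-1, and in 22.7% and 2.46% after thinning, when 1.30% and 0.365% of macrophages and monocytes held a UMI. Gzmf was detected in 28.4% and 3.40% of CD8 T cells, and in 19.8% and 2.31% after thinning, when 1.35% of macrophages and monocytes held a UMI under anti-PD-1 and none did under anti-PSGL-1 (upper bound 0.168%). Leaving out the single richest cell of each library for a gene gave ratios of 16.9 for Gzmc, 27.3 for Gzmd, 25.9 for Gzme and 21.3 for Gzmf. Gzmg was different, with 1062 UMIs against 3 (a ratio of 335, 114 to 1626) but only 35 and 2 cells with a UMI, and with 79.8% of the anti-PD-1 UMIs in 5 cells.

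The 5 genes Gzmc to Gzmg were seen together in single cells. Under anti-PD-1 56.6% of CD8 T cells had a UMI of none of them, 18.1% of 1 gene, 9.33% of 2, 4.49% of 3, 8.55% of 4 and 2.94% of all 5. Under anti-PSGL-1 these shares were 91.3%, 6.37%, 1.18%, 0.296%, 0.814% and 0.0740%. Cells with at least 2 UMIs of the cluster made up 33.9% (31.1 to 36.7) and 4.29% (3.28 to 5.51) of CD8 T cells, against 4.91% under IgG and 27.1% under the combination, with no correction for the difference in depth.

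**Figure D2:**
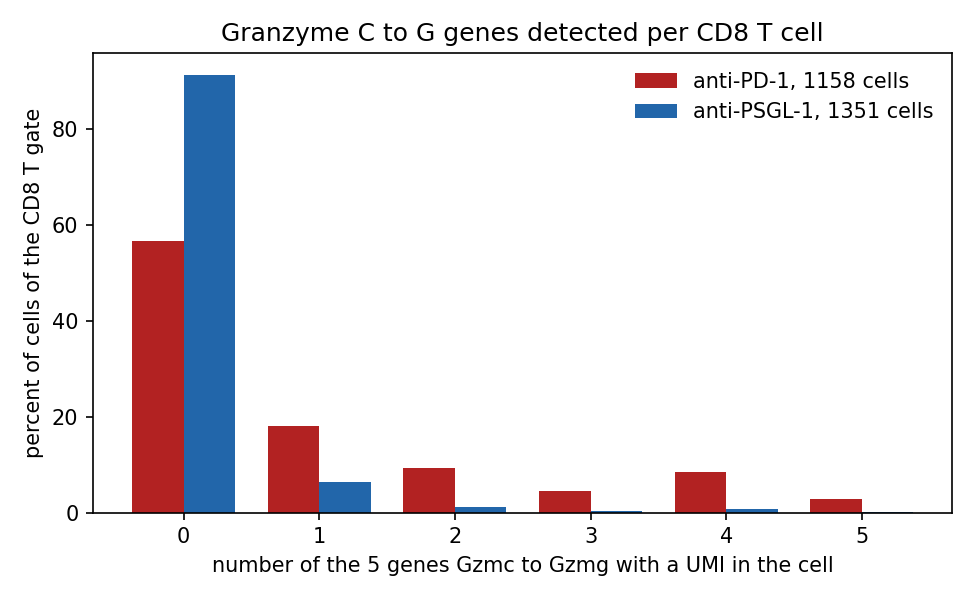
Share of CD8 T cells (percent) by the number of genes among Gzmc, Gzmd, Gzme, Gzmf and Gzmg with at least 1 UMI in the cell, for the anti-PD-1 and anti-PSGL-1 libraries. Cells with none of the 5 were 56.6% under anti-PD-1 and 91.3% under anti-PSGL-1.

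The granzymes outside this group moved less or the other way. Gzmb, the granzyme most tied to killing by apoptosis, stood at 2373 CPM under anti-PD-1 and 848 under anti-PSGL-1 (IgG 799, combination 2625), a ratio of 2.80 (2.74 to 2.86). It was detected in 87.6% and 73.8% of the cells, and in 78.4% and 54.9% after thinning (2.99% and 1.96% of macrophages and monocytes). Prf1 stood at 421 and 142 CPM, a ratio of 2.96 (2.81 to 3.12). Gzmb and Prf1 were thus higher by about the same factor, well under that of Gzmc and Gzmf. Gzmk, the granzyme of early effector and memory cells, was lower at 74.0 against 143 CPM, and so was Gzmm at 2.30 against 12.5 CPM. Gzma, on chromosome 13 with Gzmk, had a ratio of 1.08.

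Among 17 secreted and death-inducing effector genes, 13 were measured, 6 were higher and none was lower (median log2 ratio 0.37). Ifng, the interferon-gamma gene, stood at 507 CPM under anti-PD-1, 173 under anti-PSGL-1, 226 under IgG and 363 under the combination, a ratio of 2.93 (2.79 to 3.07). A single cell held 31.1% of the anti-PD-1 Ifng UMIs, and without the richest cell of each library the ratio was 2.23. Areg, an EGF-family growth factor, stood at 242, 50.3, 163 and 278 CPM in the same order, and Ccl9, a CC chemokine, at 71.0, 16.4, 15.4 and 121. For these 2 genes the anti-PSGL-1 library was near or below IgG and the anti-PD-1 library was 4.81-fold and 4.33-fold higher than it. The other major effector cytokine, Tnf, had a ratio of 0.982, the death ligand Fasl one of 1.03, and the chemokines Ccl4 and Ccl5 ones of 0.832 and 0.797.

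Inhibitory receptors of T cells differed gene by gene, with 3 of 17 measured genes higher and 2 lower (median log2 ratio 0.22). Lag3, which binds MHC class II, stood at 301 CPM under anti-PD-1 and 163 under anti-PSGL-1 (IgG 229.7, combination 335). Nrp1, a semaphorin co-receptor, stood at 107 and 50.8 CPM and Cd244 at 40.7 and 19.0. Tigit was lower, at 8.09 against 14.5 CPM. Of the NK receptor and factor list, 13 of 22 genes were measured, 5 were higher and 4 lower. Klrd1, the CD94 subunit of the NKG2 receptors, stood at 769 and 339 CPM and was detected in 65.9% and 39.4% of thinned cells (2.15% and 1.42% of macrophages and monocytes). Klrk1, which encodes the activating receptor NKG2D, stood at 326 and 164 CPM. The inhibitory receptors Klra7 (Ly49G) and Klrg1 of the same list were lower, at ratios of 0.356 and 0.327. The activation-linked genes Il2ra, the high-affinity IL-2 receptor chain, and Cd200 were higher too, at ratios of 1.97 and 2.55, while the early activation marker Cd69 was lower at 0.586. AA467197, the mouse Nmes1 gene, was among the largest differences outside the granzymes, at 332 against 80.6 CPM.

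None of the 15 measured genes of the progenitor, naive and memory list was higher, and 9 were lower (median log2 ratio -0.67). Tcf7, which encodes TCF-1 and marks the self-renewing progenitor of exhausted T cells, stood at 12.6 CPM under anti-PD-1, 41.9 under anti-PSGL-1, 51.1 under IgG and 8.61 under the combination, a ratio of 0.302 (0.252 to 0.359). It was detected in 7.43% and 19.8% of cells, and in 3.83% and 9.99% after thinning (0.168% and 0.137% of macrophages and monocytes). The anti-PSGL-1 library was close to IgG and the anti-PD-1 library close to the combination. S1pr1, the receptor for exit from tissue (11.1 against 33.7 CPM), Klf2, the factor that drives it (58.9 against 129), and Bcl2, a survival factor (36.5 against 88.3), were lower.

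Of 13 measured chemokine receptor and homing genes, 7 were lower and none higher (median log2 ratio -0.63). They included Cxcr3, the receptor for Cxcl9 and Cxcl10, at 14.5 against 37.1 CPM. Among effector transcription factors Eomes stood at 41.0 and 99.2 CPM (IgG 73.1, combination 53.7), and Klrg1, a receptor of terminal effectors carried on that list, at 8.61 and 26.3. Irf8 was the 1 higher gene of this list, at 524 against 272 CPM. Maf, a factor linked to IL-10 and exhaustion, stood at 14.4 against 53.7 CPM. Dividing cells, those with a UMI of Mki67 or Top2a, were 55.4% (52.5 to 58.3) and 47.7% (45.0 to 50.4), against 40.5% under IgG and 56.0% under the combination. These shares had no correction for the difference in depth. None of 25 cell cycle genes passed 1.5-fold. The glycolysis list had 2 higher and 2 lower genes of 20 measured, the costimulation list 2 and 1 of 12, and the heat shock list 0 and 3 of 22. The 2 lower glycolysis genes, Eno1 and Pgk1 (ratios of 0.602 and 0.336), were lower past 1.5-fold in all 6 cell types.

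**Figure D3:**
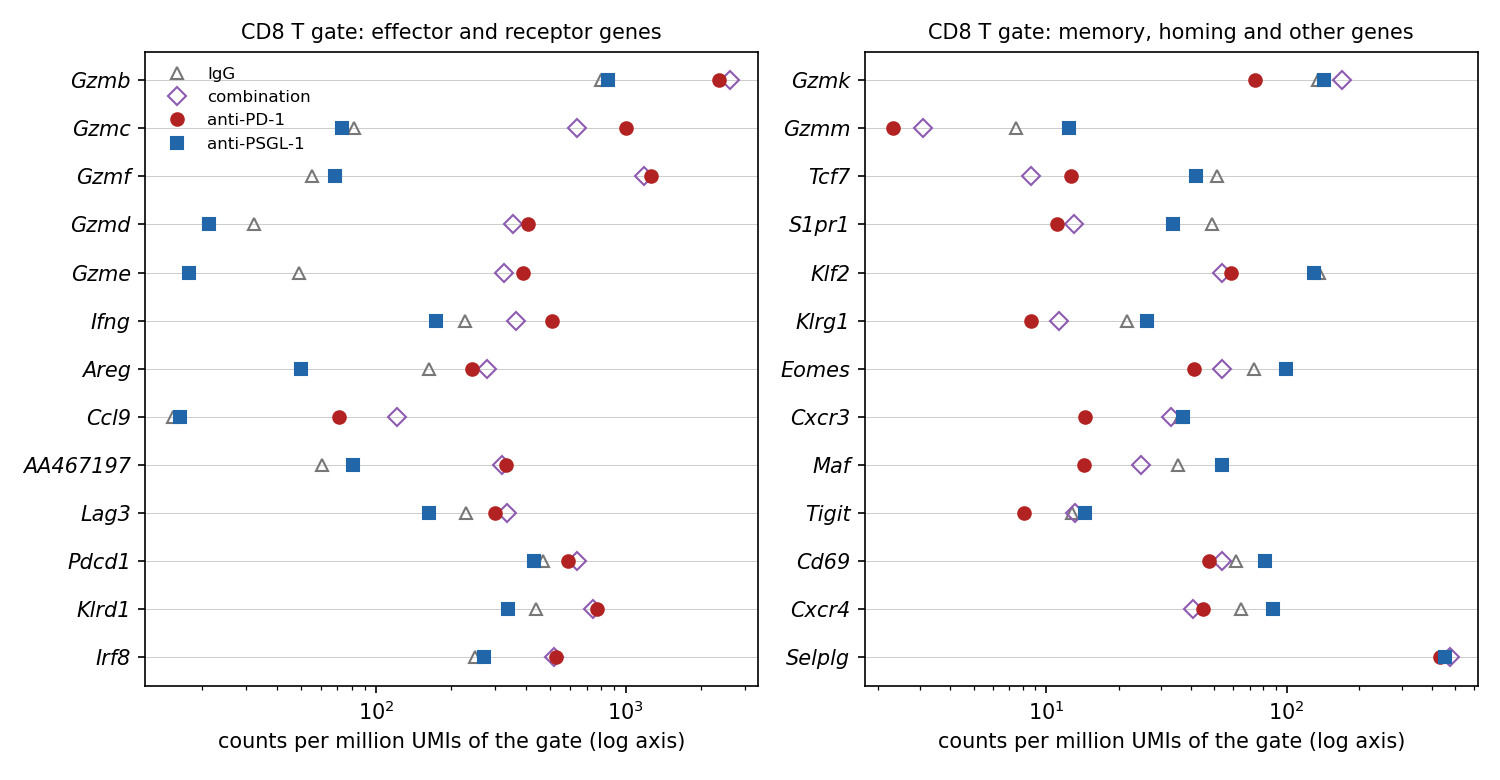
Level of named genes in CD8 T cells (CPM, logarithmic horizontal axis), 1 symbol per library, with no error bars because each treatment has 1 library. Gzmf, Gzmc and Gzme stand more than 10-fold apart between anti-PD-1 and anti-PSGL-1, Tcf7 stands at 12.6 and 41.9 CPM, and Selplg is level at 433 and 454 CPM.

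Transcripts of MHC class II were lower in the CD8 T cells of the anti-PD-1 library, 8 of 9 measured genes (median log2 ratio -1.37). H2-Aa stood at 70.8 against 244 CPM and Cd74, the invariant chain, at 184 against 594 CPM, with 45.5% of the anti-PD-1 Cd74 UMIs in 5 cells. In CD8 T cells with no UMI of Gzmc to Gzmg, the ratios of H2-Aa, Cd74 and H2-Ab1 were 0.215, 0.249 and 0.272. In those with at least 2 UMIs (392 against 58 cells) they were 0.832 (0.662 to 1.06), 0.753 (0.654 to 0.870) and 1.30 (1.02 to 1.69). Conventional CD4 T cells showed 8 of 9 and NK cells 5 of 9 of the class II genes lower. Dendritic cells, whose defining transcripts these are, were 3.84% and 7.29% of the libraries, and cells with both T and dendritic markers 0.439% and 1.88%. The part of free dendritic RNA or attached cells in this result was not tested.

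Since granzyme C to G cells were so unequal, CD8 T cells with no UMI of these genes (655 and 1233 cells) were compared on their own. Ifng stood at 681 against 168 CPM, a ratio of 4.07, but 1 cell held 50.5% of these anti-PD-1 UMIs and without the richest cell of each library the ratio was 2.28. Lag3, Klrd1 and Areg had ratios of 2.12, 2.21 and 3.02. Tcf7 and Eomes were 0.517 and 0.598. Il2ra had a ratio of 1.16 (0.908 to 1.48) here and Irf8 one of 1.51. In the cells with at least 2 UMIs of these genes (392 against only 58 cells), the ratio was 1.32 for Ifng (1.43 without the richest cells), 1.38 for Lag3, 1.29 for Klrd1 and 0.322 for Eomes. That of Areg was 2.33, where 1 cell held 76.4% of the anti-PSGL-1 UMIs, and 8.69 without the richest cells. In these cells Il2ra had a ratio of 1.12 (0.812 to 1.59) and Irf8 one of 0.891. The difference between the 2 groups of cells was not tested.

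NK cells under anti-PD-1 carried more Gzma, Gzmb and Ccl5 and fewer cell cycle transcripts than those under anti-PSGL-1. Of 7304 genes measured, 688 (9.42%) were higher and 696 (9.53%) lower. The median UMIs per NK cell were 3558 and 4845. Gzma stood at 9901 CPM under anti-PD-1, 4945 under anti-PSGL-1, 6954 under IgG and 8737 under the combination, a ratio of 2.00 (1.96 to 2.05). Gzmb stood at 2013, 951, 1058 and 2719 CPM in the same order. The anti-PSGL-1 library had the lowest Gzma and Gzmb of the 4. Ccl5, a chemokine that draws T cells and dendritic cells, stood at 10129 and 5371 CPM, while Xcl1, which draws cDC1, stood at 867 and 1353. Prf1 was close to level, at 354 and 313 CPM. Of 14 measured granule genes 5 were higher and none lower (median log2 ratio 0.42 against 0.05 over all genes).

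The granzyme cluster that set CD8 T cells apart went the other way in NK cells. Cells with at least 2 UMIs of Gzmc to Gzmg were 7.42% (5.22 to 10.2) of NK cells under anti-PD-1 and 16.6% (13.1 to 20.7) under anti-PSGL-1, against 5.57% under IgG and 25.5% under the combination, with no correction for the lower depth of NK cells under anti-PD-1. Dividing NK cells were 15.5% (12.3 to 19.0) and 24.6% (20.4 to 29.1), again with no correction for depth. Of 24 measured cell cycle genes 20 were lower (median log2 ratio -1.64, and 0.22 once dividing cells were left out). Mki67, a marker of cycling cells, stood at 26.7 against 159.8 CPM. The mitotic ubiquitin enzyme gene Ube2c stood at 7.18 against 65.2 CPM.

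NK receptors and factors were balanced, 2 higher and 2 lower of 21 measured. These shares are near those over all genes measured in NK cells, 9.42% higher and 9.53% lower. The Ly49 receptor genes Klra4 and Klra9 stood at 639 against 387 CPM and 281 against 185 CPM, although Klra9 shares part of its sequence with other Ly49 genes, between which reads can be split. Klrb1f and Klrg1 were lower, at ratios of 0.445 and 0.588. Crem, a cAMP-responsive factor (691 against 278 CPM), Pmepa1, a feedback inhibitor of TGF-beta signalling (316 against 134), and the chemokine receptor Cxcr4 (390.4 against 199) were higher. Cxcr6, which marks tissue-resident and liver-type cells, was lower at 3.59 against 23.5 CPM. Heat shock and early-response genes, which rise with tissue digestion, were higher for 8 of 22 (median log2 ratio 0.38), with Hspa1a at 386 against 149.6 CPM in 38 and 28 cells. Type I interferon response genes were higher for 12 of 16 measured (median log2 ratio 0.85), and Isg15 stood at 137 against 73.7 CPM, a ratio of 1.87 that was 1.44 without dividing cells. Assigning types on thinned cells gave NK ratios of 0.823 for Cxcr6, 0.780 for Xcl1, 1.48 for Klra9 and 1.35 for Hspa1a. Selplg had a ratio of 1.26 in NK cells.

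Conventional CD4 T cells were few under anti-PD-1 (78 against 325 cells), and 1209 (16.8%) of 7186 measured genes were higher and 1160 (16.1%) lower, of which 499 and 316 had an interval that left out equality. Inhibitory receptors were higher for 9 of 14 measured genes and lower for 1 (median log2 ratio 0.89 against 0.08 over all genes). Ctla4, the competitor of CD28, stood at 904 CPM under anti-PD-1 and 259 under anti-PSGL-1, and Lag3 at 178 and 26.4. Pdcd1 stood at 314 and 166 CPM. Ikzf2, the Helios factor also known from regulatory T cells, stood at 555 against 126 CPM and the TNF receptor gene Cd27 at 297 against 59.1. Beyond the Cd4 UMI that they needed, only the lack of a Foxp3 UMI set these cells apart from regulatory T cells. The median UMIs per conventional CD4 T cell were 3564 under anti-PD-1 and 4142 under anti-PSGL-1. Regulatory T cells numbered 99 and 145. The part in these results of regulatory T cells with no Foxp3 UMI counted was not tested.

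The type 2 cytokine genes were counted in the anti-PSGL-1 library alone. Il13 had 255 UMIs in 11 of 325 cells and 0 UMIs in 78 cells under anti-PD-1, which puts it at least 16.5-fold lower against a floor of 3 UMIs, and Il5 had 156 UMIs against 0, at least 10.1-fold lower. These UMIs sat in few cells, 5 of which held 97.3% of those of Il13 and 98.7% of those of Il5. A single cell held 53.2% of those of Il5, and without the richest cell the ratios to that floor were 0.0904 for Il13 and 0.213 for Il5. With 0 of 78 cells a share of up to 3.85% is allowed, which is above the 3.38% of cells with Il13 under anti-PSGL-1, so an absence of such cells was not detectable at this depth. With cell types assigned on thinned cells, Il13 had 0 and 4 UMIs and Il5 had none in either library, and without dividing cells Il13 had 0 and 9 UMIs, so no fold can be given there. Some large ratios of this small group came from few cells, such as Ccl4, with 96.3% of the anti-PD-1 UMIs in 5 cells, and Lyz2, with 94.7% in 1 cell and a ratio of 1.33 without it. The 7 macrophage and monocyte genes left out of the assignment summed to 1842 against 821 CPM in these cells, and their part in the results was not tested. Type I interferon genes were higher for 16 and lower for 1 of 18 measured (median log2 ratio 0.96), and cell cycle genes were lower for 19 of 25 (median -1.22, but 0.87 with types assigned on thinned cells).

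Regulatory T cells (99 against 145 cells) under anti-PD-1 carried more transcripts of several effector genes and of myeloid genes, with little difference over the genes of their own programme. Of 6988 measured genes 988 (14.1%) were higher and 733 (10.5%) lower. Of 17 genes of the regulatory programme 1 was higher and 3 were lower, with a median log2 ratio of 0.04 against 0.07 over all genes. Effector cytokine and chemokine genes were higher for 6 of 11 measured with none lower (median 0.73), and granule genes for 3 of 9 with 1 lower (median 0.30). The myeloid inflammation list was higher for 11 and lower for 2 of 17 (median 1.06) and the tumour macrophage list for 6 and 1 of 9 (median 0.82). All 7 macrophage and monocyte genes left out of the assignment were at a higher CPM under anti-PD-1, with a sum of 2262 against 916 CPM (IgG 1142, combination 609.6), and none was at 0. The part of RNA from macrophages and monocytes in these results was not tested. Lag3 stood at 493 CPM under anti-PD-1 and 110.2 under anti-PSGL-1. Ccl5 stood at 2679.5 and 1009 CPM, Nkg7, a granule protein of killer cells, at 2211 and 879, and Prf1 at 88.0 and 18.2. Cxcr6, a receptor of tumour-resident T cells, stood at 123 and 40.1 CPM. Klrg1, which marks terminally differentiated regulatory T cells, was lower at 173 against 346 CPM. Areg, the tissue-repair factor of these cells, was higher at 1276 against 768 CPM, as it was in CD8 T cells. The heat shock gene Hspa1a stood at 119.9 against 735 CPM in 14 and 21 cells, and 9 of 22 genes of that list were lower, where NK cells had none lower. Type I interferon genes were higher for 14 of 15 measured (median log2 ratio 1.33). Pdcd1 and Selplg had ratios of 1.77 and 1.09. Without dividing cells the regulatory T cell ratio of Pdcd1 was 1.24 and that of Areg 1.23, from 1.66.

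Interferon response genes were higher in macrophages, monocytes and dendritic cells under anti-PD-1. Such genes share a short DNA motif near their start, the ISRE, which interferon regulatory factors recognise. The 250 bases upstream of the transcript start are shown for Isg15, a ubiquitin-like modifier, Irgm1, a GTPase of cell-intrinsic defence, and Socs1, the feedback inhibitor of JAK kinases, because these genes hold overlapping copies of the ISRE core and were 3.40-fold, 4.67-fold and 5.86-fold higher in macrophages and monocytes. The sequences are from RefSeq (GRCm38.p6, minus strand, written 5′ to 3′), and capitals mark matches to the ISRE core, GAAA followed after 2 free bases by another GAAA. They are at chr4:156200819-156201068 for Isg15, chr11:48871421-48871670 for Irgm1 and chr16:10785537-10785786 for Socs1.
Isg15: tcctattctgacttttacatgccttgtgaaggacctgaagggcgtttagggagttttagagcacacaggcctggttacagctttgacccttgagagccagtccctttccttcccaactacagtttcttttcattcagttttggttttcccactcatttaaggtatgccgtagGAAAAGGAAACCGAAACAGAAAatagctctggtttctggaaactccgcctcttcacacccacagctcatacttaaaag
Irgm1: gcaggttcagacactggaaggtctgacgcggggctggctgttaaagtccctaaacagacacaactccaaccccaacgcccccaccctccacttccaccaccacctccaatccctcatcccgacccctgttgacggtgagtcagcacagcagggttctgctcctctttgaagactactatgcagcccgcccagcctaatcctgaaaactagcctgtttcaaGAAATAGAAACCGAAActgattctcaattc
Socs1: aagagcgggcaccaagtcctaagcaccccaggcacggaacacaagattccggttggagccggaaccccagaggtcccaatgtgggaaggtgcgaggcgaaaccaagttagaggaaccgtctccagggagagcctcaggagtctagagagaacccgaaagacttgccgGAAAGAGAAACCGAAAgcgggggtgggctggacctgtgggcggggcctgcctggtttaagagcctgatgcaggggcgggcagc

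Isg15 holds 3 overlapping matches between 78 and 57 bases before its start, Irgm1 2 between 30 and 15 bases, and Socs1 2 between 83 and 68 bases. On either strand, this core was found in 2.98% of 32851 RefSeq promoters of that length, in 8 of 17 matched genes (47.1%) of the type I list and in 10 of 18 (55.6%) of the interferon-gamma list. Among these list genes in macrophages and monocytes, the median ratio of anti-PD-1 over anti-PSGL-1 was 3.30 for the 18 with an ISRE match (0.595 to 5.86) and 2.80 for the 17 without (1.40 to 3.95), so both kinds were higher. A match is a description of letters and no evidence of binding.

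In macrophages and monocytes 521 (7.65%) of 6810 measured genes were higher under anti-PD-1 and 375 (5.51%) lower. Type I interferon response genes were higher for 21 and lower for 1 of 24 measured (median log2 ratio 1.35 against -0.01 over all genes), and interferon-gamma response genes were higher for 21 of 23 with none lower (median 1.52). Isg15 stood at 1699 CPM under anti-PD-1, 500.3 under anti-PSGL-1, 906 under IgG and 893 under the combination. Irgm1 stood at 412, 88.3, 128 and 327 CPM in the same order, a ratio of 4.67. Socs1 stood at 293 and 50.03 CPM, a ratio of 5.86. The anti-PSGL-1 library lay below IgG for Isg15 and Irgm1, and the anti-PD-1 library above all others.

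Cxcl10, the chemokine that draws Cxcr3+ T cells, stood at 2125 CPM under anti-PD-1, 461 under anti-PSGL-1, 693 under IgG and 1205 under the combination, a ratio of 4.60 (4.49 to 4.72). The largest ratio of the interferon-gamma list was that of Iigp1, a GTPase that attacks pathogen vacuoles, at 224 against 34.6 CPM (6.46). Il18bp, the decoy of IL-18, stood at 115 against 22.7 CPM and the stem cell antigen Ly6a at 1461 against 358. The exception among type I genes was Oas1a, lower at 38.5 against 64.7 CPM, which shares 42.2% of its 3′ sequence windows with Oas1g, so reads of the pair may have been split.

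The ligands of PD-1, of which Cd274 is itself on the interferon-gamma list, were higher as well. Cd274 (PD-L1) stood at 493 CPM under anti-PD-1, 177 under anti-PSGL-1, 149 under IgG and 324 under the combination, a ratio of 2.80 (2.68 to 2.91), and was detected in 51.8% and 22.8% of thinned cells, against 8.18% and 7.61% of thinned CD8 T cells. Pdcd1lg2 (PD-L2) stood at 31.1 against 14.1 CPM. MHC class I genes were higher for 14 of 19 with none lower (median log2 ratio 0.77), among them the peptide transporter Tap1 (369 against 174 CPM) and the non-classical molecule H2-T23 (789 against 398). Class II genes were higher for 1 of 10, Ctss, the protease that trims the invariant chain (2998 against 1893 CPM). Selplg had a ratio of 1.02.

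Inflammatory genes were higher for 12 and lower for 1 of 24 measured (median log2 ratio 0.54). Nos2, which makes nitric oxide, stood at 186 CPM under anti-PD-1, 45.7 under anti-PSGL-1, 24.2 under IgG and 97.4 under the combination and was detected in 14.6% and 5.39% of thinned cells (0.174% and 0.149% of CD8 T cells). Irg1, which makes itaconate, stood at 309 and 104 CPM, Cd40, a receptor for T cell help, at 157 and 53.1, and Tnf at 366 and 152. The neutrophil chemokine Cxcl3 was the lower one, at 58.9 against 135 CPM. The tumour macrophage and scavenger list was split, with 2 of 24 measured genes higher and 6 lower. Mrc1, the mannose receptor of alternatively activated macrophages, stood at 37.9 against 124 CPM. Gpnmb, of lipid-laden macrophages, stood at 139.7 against 75.9 CPM and the apoptotic cell receptor Axl at 58.5 against 36.3. Ccl24, an eosinophil chemokine, had a ratio of 0.148, with 42.8% of its anti-PD-1 UMIs in 1 cell. Outside the lists, fibronectin (Fn1, 275 against 722 CPM) and platelet factor 4 (Pf4, 73.7 against 191 CPM) were lower.

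Macrophages and monocytes differed in number between the libraries, so each was also taken alone, where 7.86% of measured genes were higher and 5.83% lower in macrophages, and 7.89% and 9.2% in monocytes. The median log2 ratio was 1.21 in macrophages and 1.65 in monocytes for the type I list, and 1.54 and 1.78 for the interferon-gamma list. Cxcl10 had a ratio of 3.77 in macrophages and 7.80 in monocytes. In monocytes alone the ratios of Fn1, Pdcd1lg2 and Ctss were 0.727, 1.40 and 1.34, and in macrophages alone that of Axl was 1.39, all short of 1.5-fold.

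**Figure D4:**
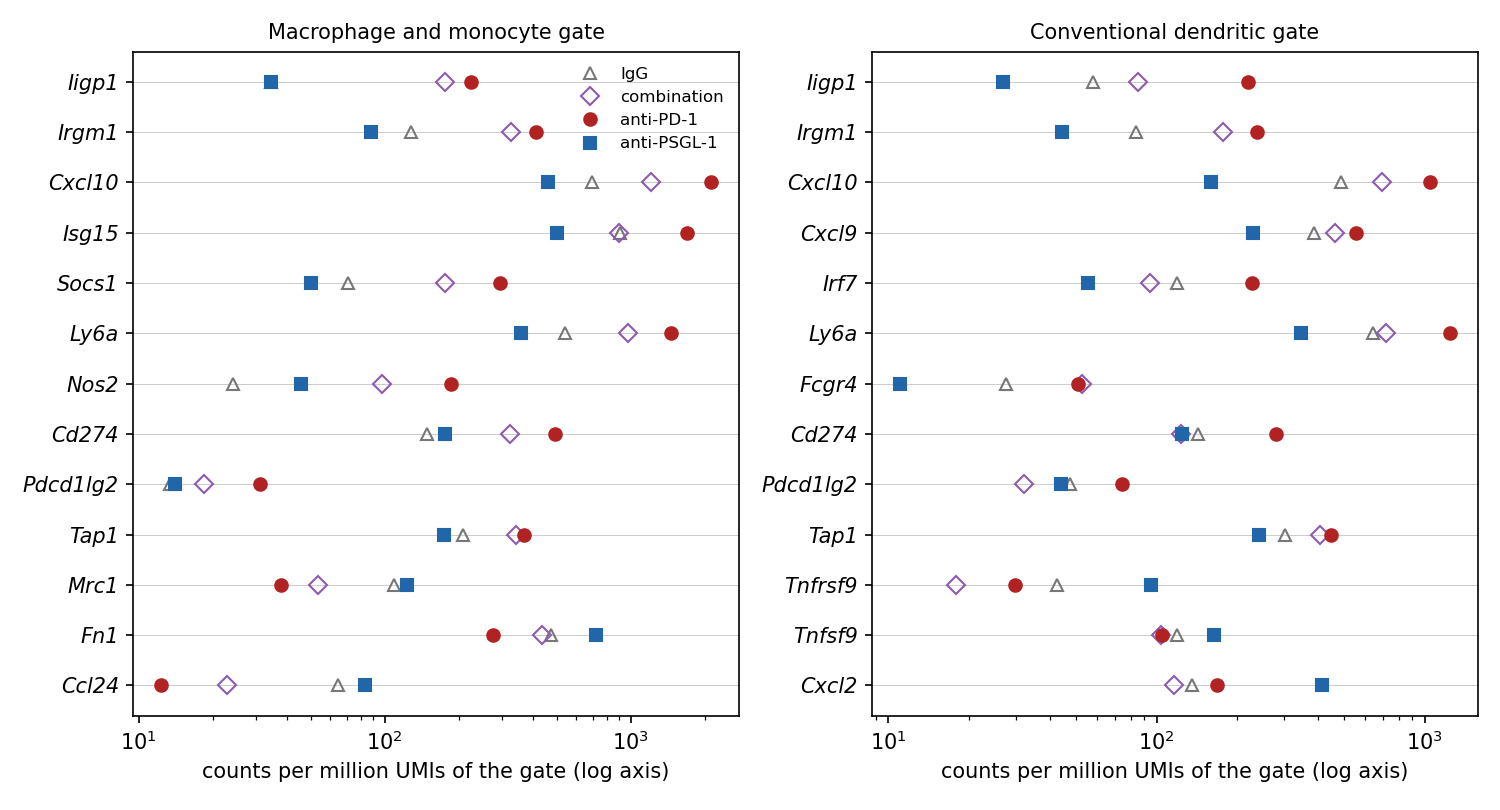
Level of named genes in macrophages and monocytes (left) and in conventional dendritic cells (right), in CPM on a logarithmic horizontal axis with 1 symbol per library. Cxcl10 stands at 2125 and 461 CPM in macrophages and monocytes and at 1049 and 160.1 CPM in dendritic cells of the anti-PD-1 and anti-PSGL-1 libraries.

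Dendritic cells under anti-PD-1 also carried more interferon response transcripts, and fewer cell cycle transcripts. Of 6932 genes measured 633 (9.13%) were higher and 431 (6.22%) lower. Of the type I list 21 of 23 measured genes were higher and none lower (median log2 ratio 1.45 against 0.07 over all genes), and of the interferon-gamma list 19 of 22 and none (median 1.38). Cxcl10 stood at 1049 CPM under anti-PD-1, 160.1 under anti-PSGL-1, 489 under IgG and 692 under the combination, a ratio of 6.56 (6.06 to 7.10), and Cxcl9, its sister chemokine, at 555 and 229. Iigp1 stood at 219 against 26.7 CPM and Irf7, the amplifier of type I interferon, at 227 against 55.3. Cxcl10 under anti-PSGL-1 lay below all other libraries.

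Cd274 stood at 280 against 125 CPM in dendritic cells and Pdcd1lg2 stood at 74.5 against 43.9 CPM. Of 20 measured maturation and T cell contact genes 8 were higher and 3 lower (median log2 ratio 0.47). Tnfsf9, the 4-1BB ligand, was lower at 105 against 164 CPM, and so was its receptor Tnfrsf9 at 29.7 against 95.7. MHC class I genes were higher for 9 of 19, with Tap1 at 447 against 242 CPM, and class II genes for 1 of 12. Cell cycle genes were lower for 15 of 23 (median log2 ratio -0.78, and 0.12 once dividing cells were left out). The chemokine genes Ccl3 and Cxcl2 had ratios of 2.95 and 0.407, but 5 cells held 71.3% and 84.1% of their anti-PD-1 UMIs, and Ccl3 had a ratio of 1.19 without dividing cells. Selplg was 405 against 316 CPM, a ratio of 1.28.

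The subsets differed in how far the response reached, with no test of the difference between them. In cDC2, where 13% of all measured genes were higher and 9.83% lower, the type I list was higher for 22 of 24 genes (median log2 ratio 2.01) and Cxcl10 8.45-fold higher. In cDC1 (14.8% and 11.9% of all genes) it was higher for 10 and lower for 1 of 14 measured (median 0.91), and Cxcl10 stood at 149 against 10.9 CPM. Migratory cells (15.5% and 18.2% of all genes) had 9 genes higher and 5 lower of 21 (median 0.30). The order of the medians was thus cDC2, cDC1 and migratory cells for the type I list, and the same for the interferon-gamma list at 1.61, 1.00 and 0.73. With 45 cDC1 and 45 migratory cells under anti-PD-1, single genes there rest on few cells: Il12b in cDC1 had 43 against 14 UMIs, a ratio of 9.67 that became 1.15 without the 5 richest cells.

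Both interferon lists were thus higher in each of the 6 cell types, least in CD8 T cells, where 5 of 13 measured type I genes were higher and none lower (median log2 ratio 0.43) and 5 of 20 interferon-gamma genes (median 0.31). Isg15 there stood at 107 against 55.8 CPM.

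**Figure D5:**
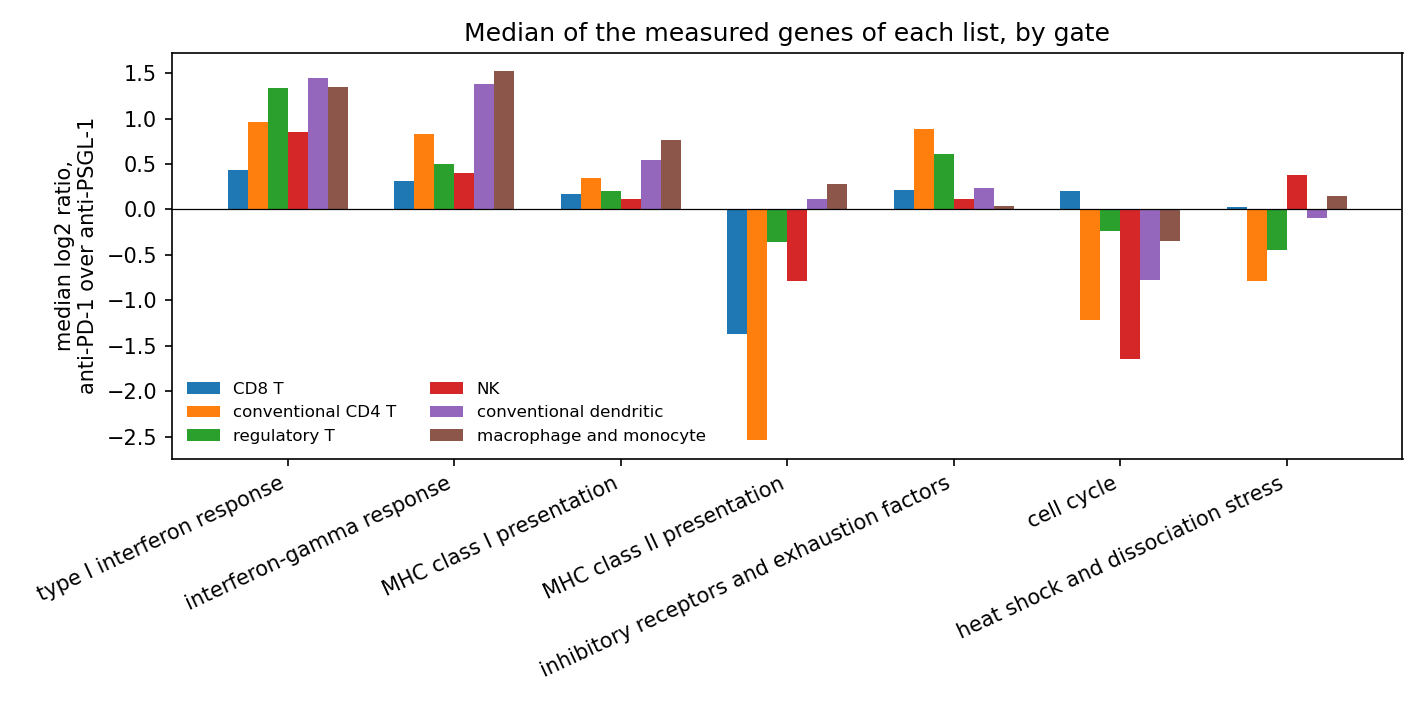
Median log2 ratio of anti-PD-1 over anti-PSGL-1 (log2 of the CPM ratio) for gene lists in the 6 cell types, over the measured genes of each list. The type I interferon list runs from 0.43 in CD8 T cells to 1.45 in dendritic cells, and the cell cycle list from -1.64 in NK cells to 0.20 in CD8 T cells.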

How the data were processed

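The deposited files are UMI counts per gene and cell barcode for 27998 genes, made by the authors with Cell Ranger 3.1.0 on mm10, per the submitters' processing notes, with 1 library per treatment. The sources used here give neither the authors' filters on cells nor the antibody clones. Cells were kept and assigned as follows. A cell needed 3 or more UMIs of the leading lineage's markers and 3 times those of any unrelated lineage, or was mixed or unassigned. A plain majority was enough between T and NK, macrophage or monocyte and neutrophil, and plasmacytoid dendritic and B markers. The same held for conventional dendritic against macrophage or monocyte and plasmacytoid dendritic markers. CD8 T cells needed 2 or more UMIs of Cd8a and Cd8b1 and none of Cd4 or Foxp3. Conventional CD4 T cells needed at least 1 Cd4 UMI and none of Cd8a, Cd8b1 or Foxp3. Regulatory T cells needed at least 1 Foxp3 UMI and none of Cd8a or Cd8b1. Dendritic subsets needed 2 or more UMIs, and macrophages and monocytes were split by the larger marker sum. Counts were summed per cell type and library with Python 3.11.15, numpy 2.4.6, pandas 2.3.3 and scipy 1.17.1. Shares have Clopper-Pearson intervals and CPM ratios exact conditional Poisson intervals at 95%, ratios of shares log-normal ones, and a count of 0 was set to a floor of 3 UMIs over the cells of the type. The depth was 39983164 UMIs in the kept cells under anti-PD-1 and 52674010 under anti-PSGL-1, which sets the counting error of the sums. Depth per cell also bears on which cells meet the rule of a type and on shares of cells with a UMI. Free RNA was not removed. Doublets stayed in, apart from mixed cells. The Scrublet caller (scanpy 1.11.5), at its own threshold, called 84 and 0 cells and so had not worked for the second library, and as an alternative a fixed 0.8% per 1000 cells was removed. Ratios and their intervals were tested only on counts simulated as Poisson draws per gene. Such draws hold no clumping of UMIs in single cells, so the test cannot show how the intervals fare where few cells hold most UMIs.

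The comparison, cell types, markers and gene lists were chosen with earlier results of these data known. Genes were named by a rule: in each cell type the 8 genes each way (12 in CD8 T cells and in macrophages and monocytes) with the interval bound farthest from 1 among those at 50 CPM or more, the targets, and up to 3 members each way of each fitting list. This gave 338 entries, of which the 146 tracked across alternatives were picked after their values were seen. Gzmb and Prf1 in CD8 T cells, and other list members given by ratio alone, lie outside the rule and were also picked then. Gene positions are from GENCODE mouse release 21 and promoters from RefSeq. Read sharing between similar genes was judged from windows of 91 bases at the transcript end. Alternatives covered the filters, the assignment, doublets, dividing cells, thinning, the scaling and the fold. A few results are not reported here.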

Additional observations from a re-analysis of the deposited data

Results flagged for a closer look

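The genes below were past 1.5-fold in opposite directions in different cell types of the same pair of libraries. With 1 library each, the difference was not tested. Each value is the log2 ratio of anti-PD-1 over anti-PSGL-1 in the first cell type minus that in the second.

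The metallothionein genes Mt1 and Mt2, which bind zinc and copper, were higher in CD8 T cells under anti-PD-1 and lower in dendritic cells and in macrophages and monocytes. The difference was 3.56 for Mt2 between CD8 T and dendritic cells (ratios of 3.79 and 0.321) and 3.59 between CD8 T cells and macrophages and monocytes (0.316 in the latter). For Mt1 it was 2.13 (2.42 and 0.555) and 2.34 (0.479 in the latter). Ccl9 differed by 2.82 between CD8 T cells (4.33) and macrophages and monocytes (0.614), and Cd69, the early activation marker, by -1.55 (0.586 and 1.72).

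Between CD8 T and NK cells, AA467197 differed by 3.14 (4.12 and 0.468) and the chemokine receptor Cxcr4 by -1.94 (0.512 and 1.96). Socs3, a feedback inhibitor of STAT3 signalling, differed by -1.63 between CD8 T cells (0.562) and dendritic cells (1.73). Ms4a4c, an interferon-inducible membrane protein of the MS4A family, was lower in NK cells (0.371) and higher in dendritic cells (2.26) and in macrophages and monocytes (1.84), differences of -2.60 and -2.31.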

How the results depend on the processing

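No paired analysis was possible because each treatment has 1 library and no replicate numbers. Of 146 named gene ratios, 124 kept their direction and their side of 1.5-fold under every alternative that gave a value. The direction was kept by 42 of 42 in CD8 T cells, 11 of 12 in conventional CD4 T cells, 15 of 15 in regulatory T cells, 26 of 26 in NK cells, 20 of 20 in dendritic cells and 31 of 31 in macrophages and monocytes. The exception was Lyz2 in conventional CD4 T cells (0.692 without the highest doublet scores, 0.331 without dividing cells). Folds at the floor of 3 UMIs, such as Il13 and Il5 on thinned cells, were not given. Leaving out the richest cell of a gene, and leaving out genes past 1.5-fold in all 6 cell types, were chosen after seeing the data.

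With types assigned on thinned cells the ratio of shares was 0.442 for conventional CD4 T cells, 0.706 for cDC1 and 0.120 for neutrophils, and with at least 1000 genes per cell it was 0.0483 for neutrophils. Counts of genes past 1.5-fold moved with the minimum level. With no CPM minimum there were 639 higher and 989 lower in CD8 T cells, 1031 lower in dendritic cells, and 963 higher and 1281 lower in macrophages and monocytes. With a 50 CPM minimum they were 90 and 98 in CD8 T cells, 500 and 254 in conventional CD4, 371 and 191 in regulatory T, 207 and 135 in NK, 232 and 100 in dendritic cells, and 304 and 137 in macrophages and monocytes. Without dividing cells 421 were higher in CD8 T and 631 in regulatory T cells, with types on thinned cells 654 were lower in conventional CD4, and in monocytes alone 617 were lower. Past 2-fold they were 78 and 101, 372 and 581, 297 and 256, 140 and 272, 206 and 146, and 206 and 99 in the same order.

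List medians (log2) that changed sign were the selectin list in CD8 T cells (0.0239 without cells holding 2 UMIs of naive-type genes), MHC class II (-0.0452 in monocytes alone), the tumour macrophage list (0.10 on thinned cells), the cell cycle list without dividing cells in dendritic (0.12), NK (0.22) and conventional CD4 cells (0.0818) and on thinned cells in conventional CD4 (0.87) and regulatory T cells (0.23), and the regulatory programme (-0.0301 by median scaling, -0.21 on thinned cells, -0.20 without dividing cells). The causes were not tested.

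The share of cells with a UMI depends on the depth thinned to. At 1000 UMIs the difference, anti-PD-1 minus anti-PSGL-1 in percentage points, was 14.4 for Gzmc, 16.9 for Prf1 and -4.74 for Eomes in CD8 T cells, and 14.5 for Irg1, 19.7 for Cd274, 22.7 for Cxcl9, 16.7 for Socs1, 10.5 for Iigp1 and -13.6 for Vcan in macrophages and monocytes. At 4000 UMIs it was 14.2 for Gzme, 21.3 for Gzmf, -15.9 for Gzmk, 30.4 for Prf1, 18.3 for Spp1, -13.7 for Eomes and 11.4 for Havcr2 in CD8 T cells, and 12.1 for Nos2, 27.7 for Irg1, 32.3 for Cxcl9, 34.5 for Socs1, 23.1 for Iigp1 and -0.175 for Ccl8 in macrophages and monocytes. Each kept the direction it had at 2000 UMIs.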

Other observations

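Small populations outside the comparisons were counted as well. B cells were 1.03% of kept cells under anti-PD-1 and 2.62% under anti-PSGL-1, a ratio of 0.393, and T cells that met neither the CD8 nor the CD4 rule were 5.44% and 10.9%, a ratio of 0.501. For each T cell there were 0.291 NK cells under anti-PD-1 and 0.152 under anti-PSGL-1, and for each macrophage or monocyte 0.0816 and 0.215 conventional dendritic cells. Rnaset2a, which encodes a lysosomal ribonuclease, was 3.61-fold to 6.44-fold higher under anti-PD-1 in the 6 cell types, and Hist1h2ap, a histone gene that shares 92.3% of its 3′ windows with its copies, was at ratios of 0.0122 to 0.101. What moves these genes in every cell type was not tested.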
